A study of Mus musculus with 6 samples.

Results

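Genes of mesenchyme, smooth muscle and interstitial matrix were followed in sorted cells of the mouse aorta, gonad and mesonephros (AGM) region. The set was fixed by name: 35 genes, of which 34 had a probe set assigned to 1 gene on the array, out of 19937 genes measured this way. Fbn1 was not analysed here. The 34 comprised 11 transcription factors and cofactors, 11 contractile, cytoskeletal and mural cell genes and 12 matrix genes. The cells came from CD1 embryos at E11.5, with no transgene or treatment named in the labels. After digestion of the tissue with 0.1% collagenase, cells that bore CD31 and lacked both CD45 and Ter119 were sorted by surface c-kit into positive and negative cells, with 3 arrays for each. Replicates are labelled as biological, but the number of embryos behind each is not given in the sources used here, so a p-value covers array-to-array spread that may be partly technical.

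Mesenchyme is the loose embryonic tissue whose cells migrate, secrete collagen fibrils and give rise to fibroblasts and smooth muscle. Around the dorsal aorta, mesenchymal cells settle on the endothelial tube and become the smooth muscle and pericytes of its wall. Snail, Zeb and Twist proteins drive epithelial cells to take on this migratory form, and serum response factor with its cofactors drives the contractile genes. CD31 marks endothelium, platelets, some blood progenitors and primordial germ cells, whereas mesenchymal cells lack it. Endothelium itself makes vimentin, caldesmon and several of the factors described here.

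Values are RMA values on the log2 scale, ran from 1.22 to 13.71 over the arrays, and had array medians between 5.42 and 5.52. A probe set's level cannot be set against another's, so each gene is compared only with itself. Differences are c-kit-positive minus c-kit-negative. Pairs of arrays within a population had correlations of 0.976 to 0.981 over genes, which are no independent replicates, and pairs from the 2 populations had 0.946 to 0.953. The gene used for the sort, Kit, read 8.27, 8.21 and 8.19 in the c-kit-negative and 9.59, 9.54 and 9.53 in the c-kit-positive arrays, listed for replicates 1, 2 and 3 as all values below, in the direction of the labels. All 16 measured pan-endothelial markers were lower in c-kit-positive cells (limma, adjusted p under 0.05), led by the vascular endothelial growth factor receptor Kdr, 29.3-fold lower, and 12 of 14 germ cell markers were higher. Summed over the endothelial list, the level on the log2 scale was 12.999 to 13.13 in c-kit-negative and 9.78 to 10.07 in c-kit-positive arrays. For the germ cell list the sums were 11.72 to 12.16 and 12.97 to 13.21. That list includes Kit, the gene used for the sort, among its 14 genes and in its sums. No marker stands at 0 on an RMA scale, and the part of either cell type in the results below was not tested.

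Of the 34 genes, 16 fell in c-kit-positive cells and none rose (limma, Benjamini-Hochberg adjusted p under 0.05 over all 19937 genes). The background was 4.7% of all genes called lower and 2.71% called higher. The falls were 6 of 11 factors, 6 of 11 contractile and cytoskeletal genes and 4 of 12 matrix genes. Without adjustment, 22 of the 34 had a p under 0.05 and a lower value, as had 9.69% of all genes, and 0 had one and a higher value, as had 11.4% of all genes. The median difference was -0.74, or -1.09 for factors, -0.99 for contractile and cytoskeletal genes and -0.53 for matrix genes, against 0.07 over all genes. In 24 of the 34 genes all 3 c-kit-positive arrays lay below all 3 c-kit-negative arrays, an arrangement that 10.6% of all genes showed. The reverse arrangement, found in 16.2% of all genes, was seen in 0 of the 34. As the set was chosen with earlier results of these data known, these counts describe it and are no test against the background. In sorted bulk samples, fewer cells that express a gene and less RNA per cell cannot be told apart.

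**Figure D1:**
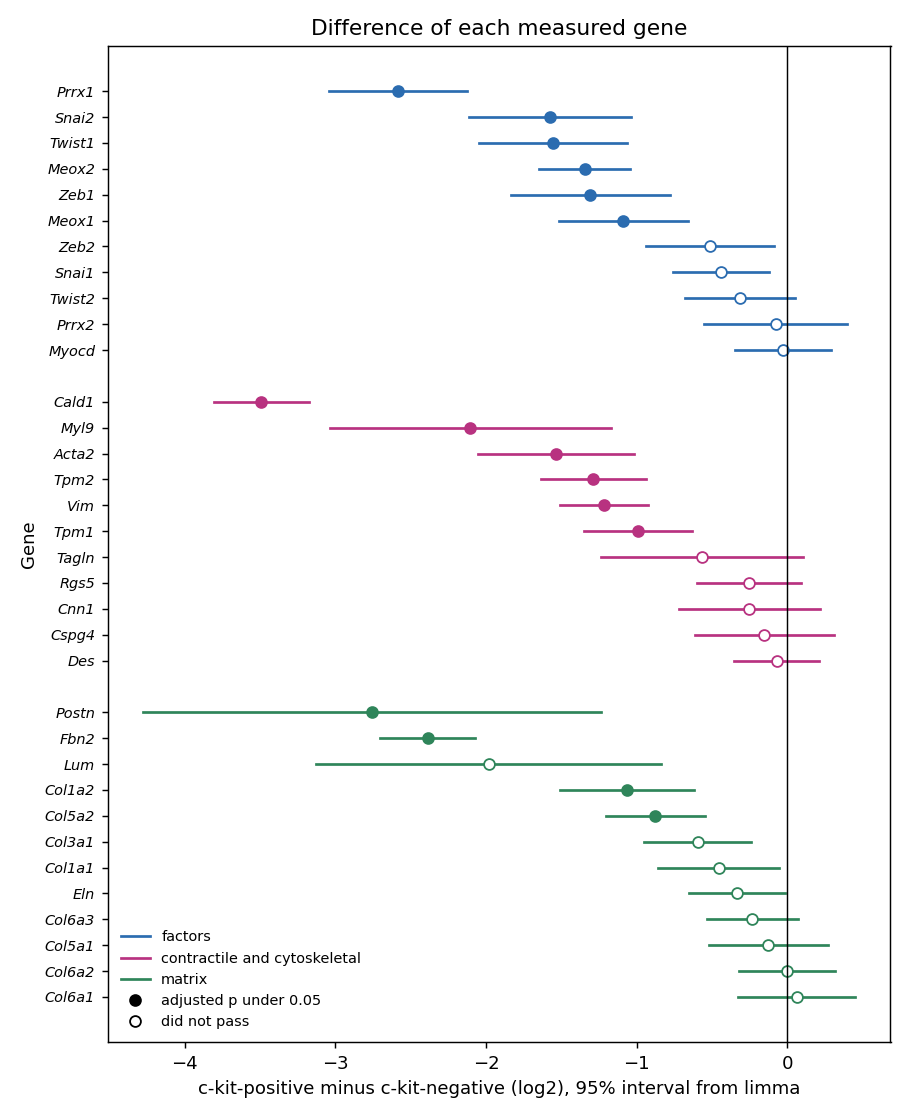
Difference of each of the 34 measured genes on the x axis (c-kit-positive minus c-kit-negative, log2), one gene per line and coloured by class, with the 95% interval from limma as a bar. Filled points passed the adjusted threshold. All 16 filled points lie left of 0, from Cald1 at -3.49 to Col5a2 at -0.88.

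Among the factors, the paired-like homeobox gene Prrx1, which marks limb and trunk mesenchyme, fell the most. It stood at 7.58, 7.60 and 8.15 in c-kit-negative and at 5.03, 5.08 and 5.46 in c-kit-positive arrays. The groups were far apart, with a difference of -2.58 ± 0.20 (SE), or 6.0-fold lower (adjusted p = 0.000189, limma). Its paralogue Prrx2 was at 5.72, 5.61 and 6.35 against 5.80, 5.95 and 5.70. Those groups overlapped, and the difference of -0.08 had a 95% interval of -0.55 to 0.40 (adjusted p = 0.877, limma).

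Twist1, a basic helix-loop-helix factor of head, limb and trunk mesenchyme, read 7.28, 6.59 and 7.35 in c-kit-negative cells and 5.70, 5.47 and 5.39 in c-kit-positive cells. Its fall was 2.94-fold (difference -1.55 ± 0.22 SE, adjusted p = 0.00374, limma), and the lowest c-kit-negative array, replicate 2, still lay above every c-kit-positive one. Twist2, its paralogue in dermal and other mesenchyme, read 5.53, 5.19 and 5.68 against 5.14, 5.23 and 5.09. The groups overlapped at c-kit-negative replicate 2, and the difference of -0.31 did not pass (95% interval -0.68 to 0.05, adjusted p = 0.308, limma). Differences between paralogues were not tested against each other.

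The zinc finger factors Snai1, Snai2, Zeb1 and Zeb2 repress epithelial genes such as Cdh1 by binding E-boxes, DNA elements that include the hexamer CAGGTG. Snai2, or Slug, was at 7.40, 7.97 and 7.86 in c-kit-negative and 6.08, 5.82 and 6.61 in c-kit-positive arrays. It fell by 2.98-fold without overlap (adjusted p = 0.00514, limma). Zeb1 stood at 8.74, 8.61 and 9.16 against 7.96, 7.16 and 7.47, a 2.48-fold fall (adjusted p = 0.0118, limma).

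Their relatives changed less in value and did not pass. Snai1 was at 6.74, 6.62 and 6.92 against 6.28, 6.41 and 6.28, and Zeb2 at 7.72, 7.44 and 7.30 against 6.66, 7.18 and 7.08. In both genes the groups were separate but close. The differences were -0.44 (95% interval -0.76 to -0.12, adjusted p = 0.109, limma) for Snai1 and -0.51 (95% interval -0.94 to -0.09, adjusted p = 0.152, limma) for Zeb2.

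Both Meox genes, homeobox factors of somite and muscle precursors of which Meox2 also acts in vessels, fell. Meox2 was at 5.35, 5.54 and 5.55 in c-kit-negative and at 4.12, 4.08 and 4.21 in c-kit-positive arrays, the tightest groups among the factors that passed (2.54-fold lower, adjusted p = 0.000639, limma). Meox1 was at 5.89, 5.87 and 6.47 against 5.08, 4.99 and 4.90 (2.13-fold lower, adjusted p = 0.0102, limma). Myocd encodes myocardin, the cofactor that commits cells to the smooth muscle programme. Its values of 4.03, 4.13 and 4.33 against 4.15, 4.06 and 4.20 overlapped fully (difference -0.03, 95% interval -0.35 to 0.29, adjusted p = 0.937, limma).

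**Figure D2:**
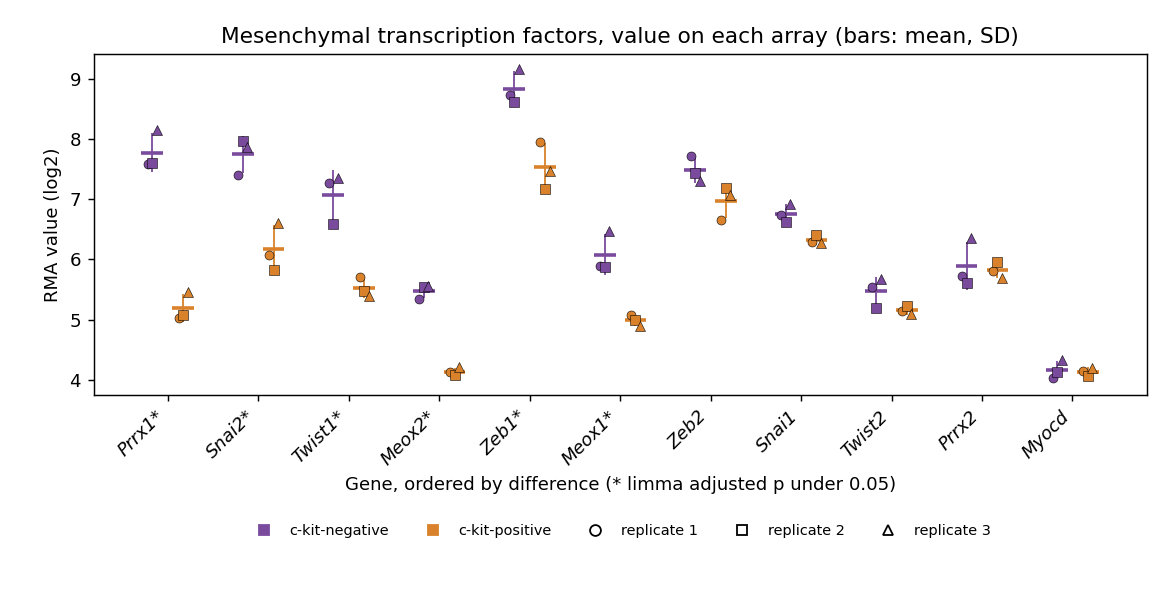
RMA values (log2, y axis) of the 11 factors on each of the 6 arrays, with genes on the x axis ordered by difference, the shape of a point giving the replicate, and horizontal and vertical bars giving mean and SD of 3 arrays. Prrx1, Snai2, Twist1, Meox2, Zeb1 and Meox1 carry an asterisk for having passed, and Prrx2, Twist2 and Myocd show overlapping groups.

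Of 15 further mesenchymal factors outside the set 5 fell and 1 rose. Foxc2 (7.01-fold lower), which also acts in lymphatic vessels, Foxd1 (5.29-fold), a factor of renal stroma, Osr1 (2.52-fold), a factor of intermediate mesoderm, and Foxc1 (2.15-fold) had the smallest p among the falls. The riser was Msx2, a homeobox factor of limb and skull mesenchyme, at 6.21, 6.09 and 5.82 against 6.83, 7.07 and 7.29 (2.04-fold higher, adjusted p = 0.00918, limma), named after its value was seen. Their median difference was -0.29.

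Epithelial genes that Snail and Zeb proteins oppose lay on the other side. Of 14 measured, 3 rose and 0 fell, and 0 had an unadjusted p under 0.05 with a lower value (limma). All 14 differences were above 0, with a median of 0.40. Most genes lay on that side too, as 12177 of all 19937 had a difference above 0, with a median of 0.07. E-cadherin, Cdh1, was at 6.48, 6.85 and 6.57 in c-kit-negative and 7.78, 7.78 and 7.80 in c-kit-positive arrays (2.22-fold higher, adjusted p = 0.00216, limma). The adhesion molecule Epcam was 2.15-fold higher and the epithelial splicing regulator Esrp1 3.05-fold higher, and germ cells carry Cdh1 and Epcam too. Esrp1 lost its call when c-kit-negative replicate 1 or 2, or c-kit-positive replicate 1 or 3, was left out (adjusted p up to 0.0985, limma).

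Promoter windows of both lists were searched for the E-box hexamer. RefSeq windows of GRCm38.p6, from 250 bases before to 50 after a transcription start, were read for CAGGTG on both strands, so that CACCTG counts as well. Of all 32851 windows 20.2% held it. Among the epithelial list 9 of the 14 genes had a window. Of their 11 windows 9 held the hexamer, those of Cldn3, Cldn4, Cldn6, Cldn7, Epcam, Krt8, Krt18 and Ocln. Of these genes only Epcam passed, and the others had adjusted p-values from 0.0949 to 0.779 (limma). Cdh1 and Esrp1, which also rose, were not among them. With windows for only 9 of the 14 genes, Cdh1 and Esrp1 cannot both have been searched, so a lack of the hexamer was not shown. The list was chosen as genes that Snail and Zeb proteins oppose, and a link between hexamer and rise was not tested. Among the 34 measured genes 24 had a window, and 2 of their 30 windows held it, those of Snai1 and Myl9. Stretches before the start, with the hexamer in capitals and up to 30 bases on either side, are shown for Epcam and Snai1. The stretch of Epcam, which rose, ends at the start, and that of Snai1, itself a Snail gene, ends before it. They lie at chr17:87635762-87635978 and chr2:167538039-167538104, both on the plus strand, and the boxes of Epcam begin 187 and 19 bases before the start and that of Snai1 126 bases before it.
Epcam: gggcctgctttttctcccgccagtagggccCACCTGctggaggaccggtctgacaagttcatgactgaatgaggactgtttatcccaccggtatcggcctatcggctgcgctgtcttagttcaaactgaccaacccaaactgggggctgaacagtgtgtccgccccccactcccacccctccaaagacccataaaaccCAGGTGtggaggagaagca
Snai1: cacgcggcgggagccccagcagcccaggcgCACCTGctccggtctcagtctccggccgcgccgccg
A match is a description of the letters and not a binding site.

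Of the contractile and cytoskeletal genes, Cald1, Myl9, Acta2, Tpm1, Tpm2 and Vim fell, and Tagln, Cnn1, Des, Rgs5 and Cspg4 did not pass. Cald1, which encodes the actin-binding protein caldesmon, changed the most of all 34 genes. It was at 9.42, 9.67 and 9.59 in c-kit-negative and at 6.03, 5.98 and 6.19 in c-kit-positive arrays. The groups were tight and far apart (difference -3.49 ± 0.14 SE, 11.3-fold lower, adjusted p = 7.46e-06, limma).

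Myl9 encodes a regulatory light chain of smooth muscle and nonmuscle myosin. Its values were 8.88, 7.67 and 8.64 in c-kit-negative and 6.03, 5.73 and 7.12 in c-kit-positive arrays, the widest spread within a population for a gene of this class. The fall of 4.30-fold passed (difference -2.11 ± 0.41 SE, adjusted p = 0.0178, limma). The call was lost when c-kit-negative replicate 1 or 3 or c-kit-positive replicate 1 or 2 was left out, with adjusted p-values of 0.0635, 0.0655, 0.0683 and 0.0548 (limma).

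Acta2, the smooth muscle actin, was at 6.65, 6.28 and 6.89 against 4.65, 5.22 and 5.34. It was 2.90-fold lower without overlap (adjusted p = 0.00495, limma). Both tropomyosin genes of the set, whose products lie along actin filaments, fell. Outside the set, Tpm3 did not pass (difference -0.19, adjusted p = 0.45, limma, named after its value was seen), and Tpm4 is given below. Tpm2 was at 8.35, 8.13 and 8.12 against 6.93, 6.72 and 7.09 (2.44-fold lower, adjusted p = 0.00169, limma), and Tpm1 at 9.39, 9.66 and 9.89 against 8.66, 8.67 and 8.63 (1.99-fold lower, adjusted p = 0.00709, limma). Vimentin, Vim, the intermediate filament of mesenchyme, endothelium and blood cells, was at 11.33, 11.23 and 11.14 against 9.99, 10.08 and 10.0. Its groups were the closest together internally of this class among those that passed (2.32-fold lower, adjusted p = 0.000937, limma).

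Tagln, Cnn1 and Des did not pass. Tagln, which encodes transgelin, was at 5.63, 5.95 and 5.50 against 5.58, 5.39 and 4.41, where c-kit-positive replicate 3 alone lay far down (difference -0.57, 95% interval -1.24 to 0.10, adjusted p = 0.319, limma). Cnn1, the smooth muscle calponin, was at 4.93, 5.70 and 5.06 against 5.02, 4.93 and 4.99, and c-kit-negative replicate 2 alone was high (difference -0.25, 95% interval -0.72 to 0.22, adjusted p = 0.547, limma). Des, the muscle intermediate filament desmin, was at 5.18, 5.22 and 5.22 against 5.17, 5.18 and 5.07, and its groups touched (difference -0.07, 95% interval -0.35 to 0.21, adjusted p = 0.796, limma). These intervals include 0 and also reach a 2-fold fall for Tagln, so a difference of that size was not shown to be absent.

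The pericyte genes did not pass either, and their groups overlapped. Rgs5, a regulator of G-protein signalling in pericytes, was at 4.86, 5.04 and 4.95 against 4.92, 4.51 and 4.66 (difference -0.25, 95% interval -0.60 to 0.09, adjusted p = 0.394, limma). Cspg4, the NG2 proteoglycan of pericytes, was at 5.42, 5.69 and 5.17 against 5.18, 5.02 and 5.63 (difference -0.15, 95% interval -0.61 to 0.31, adjusted p = 0.731, limma). Of 10 other genes linked to mural cells 3 fell and 0 rose, while 1 had an unadjusted p under 0.05 and a higher value (limma). The latter was the angiopoietin gene Angpt1, at 5.77, 7.14 and 6.61 against 6.91, 7.83 and 7.56 (adjusted p = 0.177, limma), named after its value was seen. Those that fell were the adhesion molecule Mcam (3.90-fold lower), which endothelium also carries, the potassium channel subunit Abcc9 (2.85-fold) and the platelet-derived growth factor receptor Pdgfrb (1.66-fold). Pdgfrb lost its call when c-kit-negative replicate 1 or 3, or any 1 of the c-kit-positive replicates, was left out (adjusted p up to 0.103, limma).

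**Figure D3:**
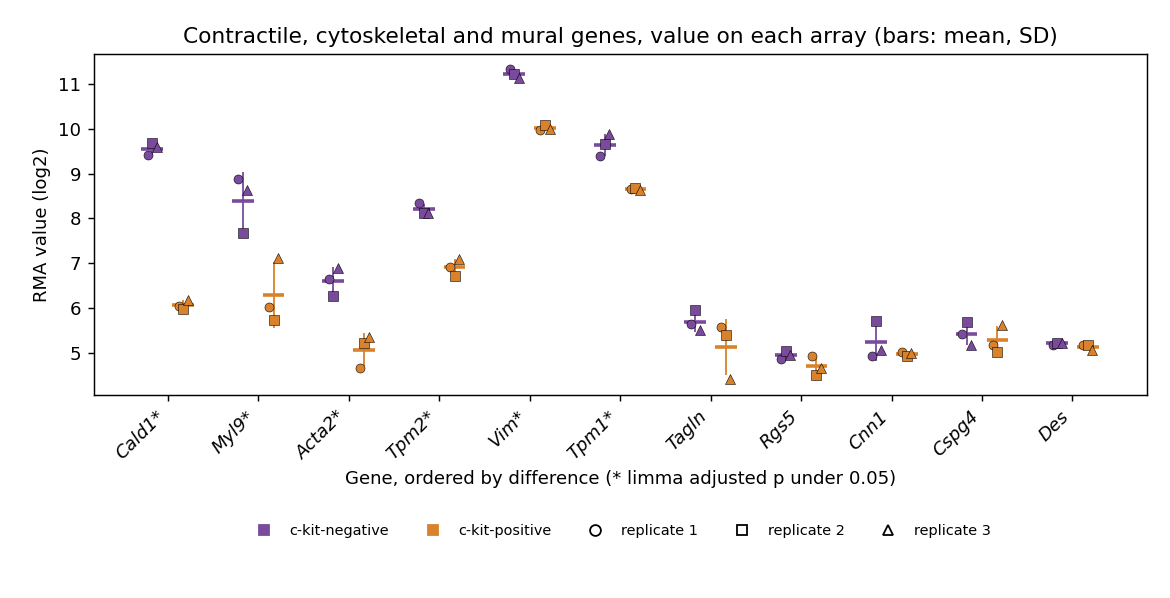
RMA values (log2, y axis) of the 11 contractile, cytoskeletal and mural genes on each of the 6 arrays, with genes on the x axis ordered by difference, the shape of a point giving the replicate, and bars giving mean and SD of 3 arrays. Cald1 shows the widest gap, between 9.42 and 6.19, and the 5 genes on the right without an asterisk show differences from -0.57 to -0.07.

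Of 8 further smooth muscle genes 2 fell and 0 rose, and 0 had an unadjusted p under 0.05 and a higher value (limma), with a median difference of -0.01. They were Smtn, or smoothelin (2.09-fold lower, adjusted p = 0.00384, limma), and the myosin light chain kinase Mylk (1.59-fold, adjusted p = 0.0351, limma). Mylk did not pass under quantile normalization or without any 1 of the arrays except c-kit-positive replicate 3, with adjusted p-values of 0.0535 to 0.107 (limma), so that 1 of the 8 remained there. Myh11, the smooth muscle myosin heavy chain named after its value was seen, was at 5.73, 5.54 and 5.74 against 5.59, 5.63 and 5.86. Of 15 actomyosin genes that most cells express 6 fell and 0 rose, and 0 had an unadjusted p under 0.05 and a higher value (limma), with a median of -0.48. Among them were the actin crosslinker Flna (3.30-fold lower), the nonmuscle tropomyosin Tpm4 (4.12-fold), the calponin Cnn2 (4.45-fold) and the nonmuscle myosin Myh10 (4.61-fold).

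Serum response factor, Srf, did not pass, at 7.03, 7.14 and 6.77 against 6.98, 7.04 and 6.66 (difference -0.09, adjusted p = 0.813, limma, named after its value was seen). Of the 9 genes for the factor, its coactivators and their LIM domain partners 3 fell and 0 rose, and 0 had an unadjusted p under 0.05 and a higher value (limma). They were the focal adhesion protein Tgfb1i1, or Hic-5 (2.99-fold lower), Csrp2 (1.98-fold) and Nexn (1.78-fold). Nexn did not pass with quantile normalization or array weights (adjusted p = 0.0542 and 0.0502, limma), or without any 1 of the arrays except c-kit-positive replicate 2 (adjusted p up to 0.126, limma).

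The element bound by serum response factor, the CArG box, was looked for in the same promoter windows on both strands, and 1.63% of all windows held it. Of the 34 measured genes only Myl9 had a match among the 24 with a window. Fhl1, Fhl2 and Srf of the factor's own list and Actg1, Cnn2, Myl6 and Vcl of the broad actomyosin list had one. Fhl1, Fhl2, Myl6 and Vcl did not pass (adjusted p = 0.329, 0.275, 0.101 and 0.202, limma), and Actg1 was not measured. In the marker lists Actc1, Acta1 and Ppbp, which fell, and Elavl4, which did not pass (adjusted p = 0.606, limma), had a match. A link between the box and the falls was not tested. Stretches around the box are shown for 3 genes that fell and for Srf, which did not pass, with the box in capitals and 30 bases on either side. They lie at chr2:156775273-156775342 on the plus strand for Myl9, chr10:79988514-79988583 on the plus strand for Cnn2, chr2:114052883-114052952 on the minus strand for the cardiac actin Actc1, and chr17:46556185-46556274 on the minus strand for Srf (GRCm38.p6, RefSeq).
Myl9: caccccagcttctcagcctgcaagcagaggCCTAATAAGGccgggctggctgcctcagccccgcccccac
Cnn2: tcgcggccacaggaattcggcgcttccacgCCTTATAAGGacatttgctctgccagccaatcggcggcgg
Actc1: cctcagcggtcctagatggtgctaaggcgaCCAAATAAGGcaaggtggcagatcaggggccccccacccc
Srf: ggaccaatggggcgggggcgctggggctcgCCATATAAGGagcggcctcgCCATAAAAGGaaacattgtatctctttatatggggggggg
The boxes begin 161 bases before the start in Myl9, 56 in Cnn2, 47 in Actc1 and 82 and 62 in Srf. Cnn2 was at 7.25, 7.49 and 7.56 against 5.55, 4.82 and 5.47, and Actc1 at 8.35, 7.71 and 8.12 against 5.71, 6.07 and 5.94 (4.44-fold lower, adjusted p = 0.00038, limma). Acta2, Tpm1, Tpm2 and Cald1 fell with no match in their windows, which says only that these letters are not there.

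Of the matrix genes, Fbn2, Postn, Col1a2 and Col5a2 fell. Fbn2, which encodes the fibrillin of embryonic microfibrils, had the smallest p. It was at 8.0, 7.99 and 8.10 in c-kit-negative and at 5.52, 5.82 and 5.58 in c-kit-positive arrays. No array came near the other group (difference -2.39 ± 0.14 SE, 5.23-fold lower, adjusted p = 4.42e-05, limma).

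Periostin, Postn, an adhesive protein of cushions and connective tissue, had the largest difference of the class and the largest spread of all 34 genes. It read 6.42, 9.50 and 7.53 in c-kit-negative and 4.54, 5.13 and 5.52 in c-kit-positive arrays. Replicate 2 stood far above the other c-kit-negative arrays, which made up a range of 3.08. The 6.75-fold fall passed narrowly (difference -2.75 ± 0.66 SE, adjusted p = 0.0434, limma). Without c-kit-negative replicate 2 the difference was -1.91 (adjusted p = 0.0328, limma). Without c-kit-negative replicate 3, or c-kit-positive replicate 1, 2 or 3, the gene did not pass, with adjusted p-values of 0.0919, 0.137, 0.0982 and 0.08 (limma). Nor did it pass with quantile normalization, with probe sets of several genes included or with array weights (adjusted p = 0.0507, 0.0528 and 0.0524, limma).

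Lumican, Lum, a proteoglycan that spaces collagen fibrils, had the same high array. It read 5.06, 6.83 and 4.54 against 3.67, 3.55 and 3.26, and all c-kit-positive arrays lay below all c-kit-negative ones. Its difference of -1.98 ± 0.50 (SE, 3.95-fold) fell just short of the threshold (adjusted p = 0.051, limma). Without c-kit-negative replicate 2 it passed at -1.31 (adjusted p = 0.0154, limma), and without replicate 3 of that population at -2.45 (adjusted p = 0.0282, limma). It also passed with quantile normalization, with the mean of the probe sets and with an intensity trend and robust prior (adjusted p = 0.0445, 0.0492 and 0.0494, limma).

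Type I collagen, the main fibril of connective tissue, is built from Col1a1 and Col1a2 chains. Col1a2 was at 6.94, 7.42 and 7.29 against 6.02, 6.48 and 5.94 (2.09-fold lower, adjusted p = 0.0137, limma). That call was lost when c-kit-negative replicate 3 or c-kit-positive replicate 1 was left out (adjusted p = 0.0507 and 0.0527, limma). Col1a1 was at 6.73, 7.36 and 7.0 against 6.63, 6.56 and 6.52, with groups that were separate by a small gap (difference -0.46, 95% interval -0.86 to -0.05, adjusted p = 0.181, limma). Whether partner chains differ from each other was not tested.

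Type V collagen starts fibrils, and its Col5a2 chain was at 5.68, 5.68 and 5.96 against 4.78, 4.99 and 4.92, a 1.84-fold fall (adjusted p = 0.00821, limma). The Col5a1 chain was at 5.86, 6.0 and 6.04 against 6.17, 5.60 and 5.75, where c-kit-positive replicate 1 was the highest array of all (difference -0.13, 95% interval -0.52 to 0.27, adjusted p = 0.74, limma). Col3a1, the type III collagen of vessel walls, was at 6.03, 6.34 and 6.47 against 5.60, 5.79 and 5.66, separate groups that did not pass (difference -0.59 ± 0.16 SE, adjusted p = 0.0571, limma). Without c-kit-negative replicate 1 it passed at -0.72 (adjusted p = 0.0469, limma).

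Type VI collagen forms beaded filaments near cell surfaces, and none of its 3 chains passed. Col6a1 was at 5.97, 5.71 and 6.04 against 6.23, 5.93 and 5.76, and Col6a2 at 6.02, 6.05 and 6.23 against 6.25, 6.06 and 5.98. Those differences were 0.06 (95% interval -0.32 to 0.45, adjusted p = 0.875, limma) and -0.0019 (95% interval -0.32 to 0.32, adjusted p = 0.996, limma), and the sign of Col6a2 changed with the scaling. Col6a1 was the single gene of the 34 with a difference above 0. Col6a3 was at 5.53, 5.45 and 5.42 against 5.28, 5.10 and 5.32 (difference -0.23, 95% interval -0.53 to 0.07, adjusted p = 0.371, limma). Elastin, Eln, was at 6.45, 6.66 and 6.73 against 6.27, 6.20 and 6.37, again separate but close (difference -0.33, 95% interval -0.65 to -0.02, adjusted p = 0.214, limma).

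**Figure D4:**
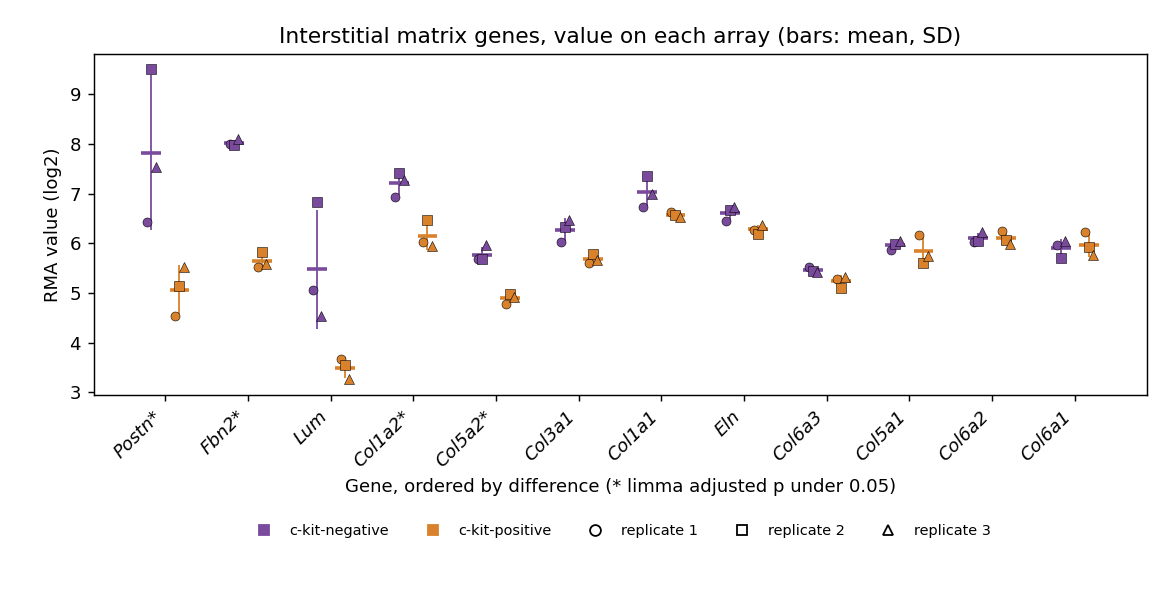
RMA values (log2, y axis) of the 12 matrix genes on each of the 6 arrays, with genes on the x axis ordered by difference, the shape of a point giving the replicate, and bars giving mean and SD of 3 arrays. The square of c-kit-negative replicate 2 stands at 9.50 for Postn and 6.83 for Lum, above the other arrays, while the Fbn2 groups are tight at about 8.03 and 5.64.

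Other genes of this matrix were counted by role. Of 17 genes for folding, processing and crosslinking of collagen 7 fell and 0 rose, and 0 had an unadjusted p under 0.05 and a higher value (limma), with a median of -0.71. The collagen chaperone Serpinh1, or Hsp47, was at 8.10, 8.13 and 8.11 against 6.20, 6.48 and 6.37 (3.39-fold lower, adjusted p = 0.000168, limma). The procollagen protease Bmp1 was 2.33-fold lower, the prolyl hydroxylase P4ha1 2.16-fold and the lysyl oxidase relative Loxl3 1.76-fold. P4ha1 lost its call when c-kit-positive replicate 1 or 3 was left out (adjusted p = 0.0585 and 0.0576, limma), and Loxl3 when c-kit-negative replicate 1 or c-kit-positive replicate 1 or 3 was left out (adjusted p = 0.0604, 0.0649 and 0.05002, limma). The count was 4 without c-kit-negative replicate 3, 3 without c-kit-positive replicate 1 and 2 without c-kit-positive replicate 3. Of 14 other interstitial collagens 1 fell and 0 rose, and 0 had an unadjusted p under 0.05 and a higher value (limma), with a median of 0.03. It was Col12a1, which coats type I fibrils, at 5.60, 5.67 and 5.93 against 4.64, 4.81 and 4.73 (2.01-fold lower, adjusted p = 0.00413, limma). The difference between these lists was not tested.

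Of 12 genes of elastic fibre assembly 6 fell and 0 rose, and 0 had an unadjusted p under 0.05 and a higher value (limma). Mfap2, a partner of fibrillins in microfibrils, was at 7.96, 8.51 and 8.94 against 6.31, 6.65 and 6.39 (4.06-fold lower, adjusted p = 0.00185, limma). The fibulin family gene Efemp1 was 3.54-fold lower, Mfap4 2.33-fold and the latent TGF-beta binding protein Ltbp4 2.04-fold. Efemp1 read 5.70, 6.84 and 5.85 in c-kit-negative arrays, again highest in replicate 2. Of 12 small proteoglycan and matricellular genes 4 fell and 0 rose, and 0 had an unadjusted p under 0.05 and a higher value (limma). Their median difference was -0.09, and 4 of the 12 differences were above 0. Biglycan, Bgn, was 5.36-fold lower, Sparc, a collagen-binding protein that endothelium also secretes, 4.21-fold, decorin, Dcn, 3.17-fold and fibronectin, Fn1, 1.74-fold. Fn1 lost its call when c-kit-negative replicate 1 or 2, or c-kit-positive replicate 1 or 3, was left out (adjusted p up to 0.0549, limma).

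**Figure D5:**
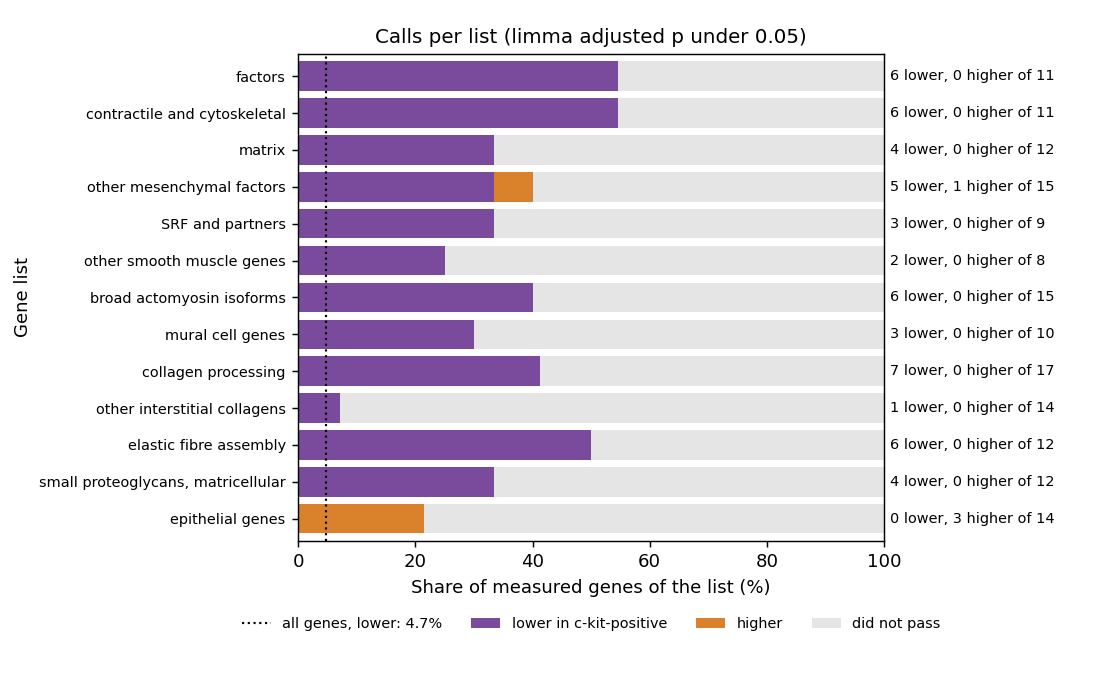
Share of the measured genes of each list (x axis, percent) that were lower, higher or did not pass in c-kit-positive cells, for the 3 classes of the 34 genes and 10 other lists (y axis), with the counts on the right and a dotted line at the 4.7% of all genes called lower. Lists of factors, contractile genes and elastic fibre assembly reach 50% or more, and other interstitial collagens lie near the line at 7.14%.

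Among the c-kit-negative arrays, replicate 3 was the highest of the 3 arrays for 9 of 11 factors, whereas replicate 2 was highest for 6 of 11 contractile and cytoskeletal genes. For the matrix genes replicate 3 was highest in 7 of 12 and replicate 2 in 4, among them Postn, Lum, Col1a1 and Col1a2. The median range between the highest and lowest c-kit-negative array was 0.55 for factors, 0.45 for contractile and cytoskeletal genes and 0.31 for matrix genes. In c-kit-positive cells the median range over the 34 genes was 0.28, against 0.44 in c-kit-negative cells. Macrophage markers, 3 of 12 lower, also differed between c-kit-negative arrays. Their sums on the log2 scale were 11.08 to 11.89 there, against 10.52 to 10.63 in c-kit-positive arrays. Platelet markers, 3 of 7 lower, had sums of 10.38 to 11.68 against 8.99 to 9.52. The part of either cell type in these patterns was not tested. The macrophage count was 1 without c-kit-positive replicate 1.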

How the data were processed

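Total RNA of 6 sorted samples, 5 ng each and amplified per the labels' protocols, was measured on 1 array each; amplification can distort ratios. The deposited log2 values are RMA output according to the submitters' processing notes. RMA equalises array distributions and compresses differences of dim genes. No version of it is stated in the sources used here, and without detection calls no gene is called absent.

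Of 34760 probe sets, 21640 were assigned to 1 gene, 1321 to several and 11799 to none listed. They covered 19937 genes, each taken from its probe set of highest mean. Each of the 34 genes had 1. Promoter sequences are RefSeq's and not complete.

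Limma 3.58.1 (R 4.3.3) fitted c-kit-positive against c-kit-negative over all 6 arrays by lmFit and eBayes, without filter or block. Tests were two-sided, with Benjamini-Hochberg adjustment over 19937 genes at 0.05. Intervals are 95%. Marker sums are log2 of summed linear values. The members and lists were chosen with earlier results of these data known. Every measured member is named. Other lists give up to 4 genes of smallest p that passed, or 1 if none did. Marker lists give up to 2 such genes, and the germ cell, macrophage and platelet lists none. Exceptions are Kit of the germ cell list, as the gene used for the sort, and genes named for a CArG box or after their value was seen.

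Alternatives changed the scaling, the dim genes and probe sets kept, limma's prior and weights, the threshold, the replicate block and the arrays included. For other lists they were chosen after seeing the data.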

Additional observations from a re-analysis of the deposited data

How the results depend on the processing

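Of the 16 genes that fell, 11 passed under all 15 alternatives tried for a single gene except that Meox2 was left out with the dimmest 30% of genes, and the other 5 were Zeb1 and Meox1, lost only at an adjusted p under 0.01 (limma), and Myl9, Col1a2 and Postn. With a minimum of 2-fold, which was applied to counts, 14 of the 16 remained, and Col5a2 and Tpm1 were lost. With 1 array left out, the 16 falls became 13 to 17 and the 4 matrix falls 2 to 5, with 2 without c-kit-positive replicate 1. At an adjusted p under 0.01 (limma) the matrix falls were 2, Fbn2 and Col5a2. Over all genes, 937 fell and 540 rose. The falls numbered 499 at an adjusted p under 0.01 and 615 with a minimum of 2-fold (limma), and the rises 131 and 215. With 1 array left out the falls ran from 670 to 745 and the rises from 276 to 369. Signs changed only for genes near 0 that did not pass. Col6a2 went from -0.0019 to 0.021 with median centring, 0.051 with quantile normalization and 0.00089 with array weights, and ran from -0.078 to 0.062 with 1 array left out. Over the arrays left out, Prrx2 ran from -0.22 to 0.15, Myocd from -0.095 to 0.056 and Col6a1 from -0.065 to 0.17. The median of all genes moved from 0.07 to 0.10 with median centring and 0.05 with quantile normalization.

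Deviations of same-numbered arrays from their group means correlated at 0.0007, 0.02 and 0.06, so no shared replicate effect was seen. With 3 arrays per population, these correlations cannot decide whether same-numbered arrays came from the same sort. With the replicate number as a block, 17 of the 34 genes fell, the same 16 and Lum (adjusted p = 0.0288, limma), and over all genes 879 fell and 476 rose. Among the other lists, Mylk and Nexn lost their calls under the block (adjusted p = 0.0538 and 0.051, limma), the falls of skeletal and cardiac muscle genes went from 4 to 2, and 1 mural cell gene, Angpt1, was called higher. The number of arrays and the unknown signal over background limit what can be said of dim genes.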

Other observations

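Muscle genes outside the set were measured as markers of skeletal and cardiac muscle. Of 12, 4 fell in c-kit-positive cells and 0 rose, and 0 had an unadjusted p under 0.05 and a higher value (limma). The cardiac troponin gene Tnnt2 was at 7.88, 7.99 and 8.24 in c-kit-negative and at 6.88, 6.51 and 6.76 in c-kit-positive arrays, 2.49-fold lower (adjusted p = 0.00193, limma). The skeletal muscle determination factor Myod1, named after its value was seen, was at 5.58, 5.97 and 5.92 against 6.04, 5.79 and 6.03 (adjusted p = 0.706, limma). The count of falls was 2 without c-kit-negative replicate 2 or 3, and without any 1 of the c-kit-positive replicates.

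Markers of 2 further tissues gave few calls. Of 10 genes of mesonephric and gonadal epithelium 0 passed (limma); 0 had an unadjusted p under 0.05 and a lower value and 1 a higher one. That gene, the kidney factor Lhx1, was at 4.99, 5.13 and 5.19 against 6.0, 5.35 and 5.48 (adjusted p = 0.162, limma). Of 6 neural and neural crest genes the neuronal stathmin Stmn2 fell, at 6.56, 6.51 and 6.67 against 4.98, 5.08 and 4.78 (3.10-fold lower, adjusted p = 0.000302, limma).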
